A study of Mus musculus with 10 samples.

Results

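Tubulin isotypes are the products of separate genes for the same building block of microtubules. The 10 isotype genes examined here are 3 α-tubulin genes (Tuba1a, Tuba1b and Tuba4a) and 7 β-tubulin genes (Tubb2a, Tubb2b, Tubb3, Tubb4a, Tubb4b, Tubb5 and Tubb6). They were chosen by gene symbol, and all 10 were found among the 55471 gene identifiers of the deposited table and among the 17101 genes tested. RNA came from the whole brain of 10 wild-type Swiss Webster pups at neonatal day 5, and every pup had been through hypoxia-ischemia, an injury in which blood flow and oxygen are cut off. In 5 pups the injury was left without treatment (mice 1 to 5), and 5 pups received allopregnanolone (mice 6 to 10), a neurosteroid made from progesterone and a positive modulator of GABA-A receptors. The labels leave unsaid whether the injury or the sampling took place on day 5. Each mouse gave 1 library, with 18656836 to 34270723 estimated counts, and no uninjured brain was analysed here.

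An α- and a β-tubulin pair up, and the pairs stack into the hollow filaments that carry cargo along axons, pull chromosomes apart and shape growing neurites. The isotypes differ mainly in a short acidic tail at the carboxyl end, where enzymes attach or remove glutamates and where motors and associated proteins bind. In the rodent brain Tuba1a, Tuba1b, Tubb2b, Tubb3 and Tubb5 are known as early isotypes of progenitors and young neurons, while Tuba4a and Tubb4a are known to gain ground as neurons and myelinating oligodendrocytes mature. Tubb2a is abundant in neurons of all ages, Tubb4b is widespread and also found in cilia, and Tubb6 is a minor isotype in brain. These are the 3 groups used below, called early, mature and other.

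The coding sequence for the tail shows how the isotypes differ. The last 20 codons before the stop codon were read from the GENCODE M21 transcripts (GRCm38) and are printed 5′ to 3′ on the coding strand. Capitals mark in-frame GAA and GAG, the glutamate codons. The set holds early and mature genes and includes the close copies Tubb2a and Tubb2b.
Tuba4a: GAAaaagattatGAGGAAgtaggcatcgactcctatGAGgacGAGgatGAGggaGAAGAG
Tubb2a: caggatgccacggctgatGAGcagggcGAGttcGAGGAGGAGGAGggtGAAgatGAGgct
Tubb2b: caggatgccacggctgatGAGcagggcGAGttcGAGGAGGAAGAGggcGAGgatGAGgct
Tubb3: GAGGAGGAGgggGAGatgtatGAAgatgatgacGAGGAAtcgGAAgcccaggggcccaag
Tubb5: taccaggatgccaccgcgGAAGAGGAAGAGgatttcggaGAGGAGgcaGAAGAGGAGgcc
Tubb4a: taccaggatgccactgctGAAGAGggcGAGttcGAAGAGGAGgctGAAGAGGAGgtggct

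All 6 tails were rich in glutamate codons, with 8 or 9 of 20. Many α-tubulins end in a tyrosine, which vasohibins remove and tubulin tyrosine ligase restores. Tuba4a, the mature α gene, ends in the glutamate codon GAG, so its message carries no terminal tyrosine codon. Tubb3 ends in the lysine codon AAG, whereas the other β genes shown end in alanine codons.

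The same sequences set how well the transcripts can be told apart. The tails of Tubb2a and Tubb2b differed at 3 of 60 bases. Over the coding sequence Tuba1a and Tuba1b were 98.3% identical and Tubb2a and Tubb2b 96.5%, against 84.8% for Tuba1a and Tuba4a and 82.4% for Tubb3 and Tubb4a. Of the stretches of 75 bases in the transcript, 68.2% for Tuba1a, 71.9% for Tuba1b, 43.2% for Tubb2a, 32.2% for Tubb2b and 37.8% for Tubb4b also occur in a transcript of another gene. None did for Tubb3, Tubb5, Tubb4a, Tuba4a and Tubb6. The deposited counts of these 5 genes were whole numbers in all 10 libraries, while those of the genes with shared stretches were fractional in 9 or 10 libraries. The read length and the way shared reads were divided are unknown here, so values of Tuba1a, Tuba1b, Tubb2a, Tubb2b and Tubb4b are uncertain as single genes, and their sums are given as well. Of the exon bases of Tuba4a, 37.3% lie opposite exons of the kinase gene Stk16, and 26.2% of those of Tuba1a and 22.7% of those of Tuba1b are shared on the same strand with Gm49450. The strand setting of the counting is not given either. Stk16 stood at 34.9 ± 1.51 CPM untreated and 36.4 ± 1.45 CPM treated, and Gm49450 ranged from 29.3 to 116 CPM over the 10 libraries.

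With allopregnanolone 6 of the 10 isotypes fell, 1 rose and 3 did not pass the threshold of 0.05 on the p adjusted over all genes tested (quasi-likelihood test of edgeR). Of the 5 early isotypes, 4 fell (Tuba1a, Tubb2b, Tubb3 and Tubb5), with a median log2 fold change of -0.34 over the 5. Of the 2 mature isotypes Tubb4a rose, with a median of 0.34 over both, and of the other 3, Tubb2a and Tubb6 fell. Among all genes tested 11.3% passed, 6.61% higher and 4.65% lower, and the median log2 fold change was -0.0046. That is 1131 genes higher and 795 lower, or 783 higher and 1451 lower when libraries were scaled by their totals alone, a setting in which the same isotype counts, 6 lower and 1 higher, were found. The 7 isotypes that passed were also the 7 whose treated and untreated libraries did not overlap, which was so for 9.64% of all genes (4.2% with treated libraries lower, 5.44% higher). CPM here means counts per 1000000 of the library after trimmed-mean (TMM) scaling of the libraries, and a log2 fold change is treated over untreated.

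**Figure D1:**
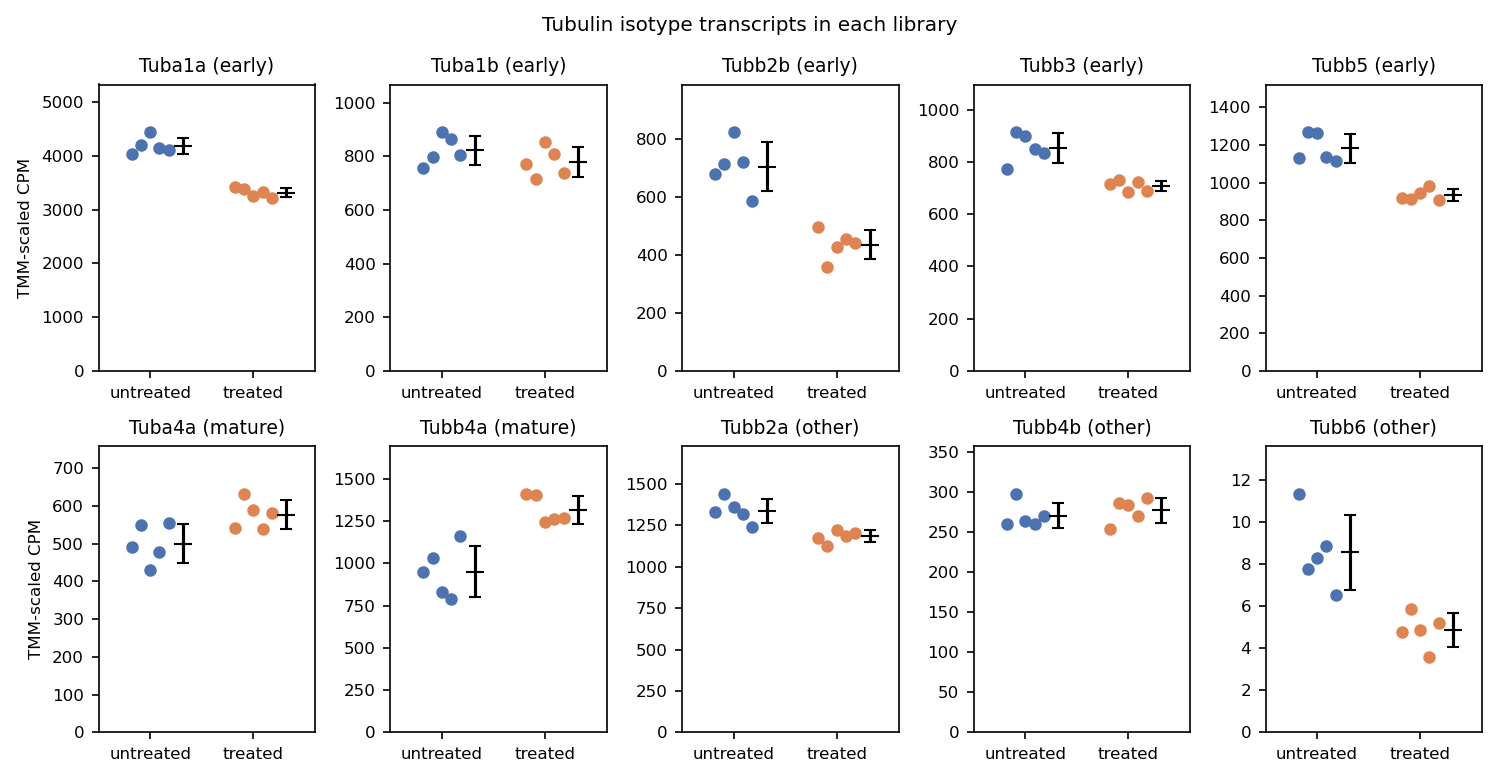
TMM-scaled CPM (vertical axis, from 0) of each of the 10 isotypes in each library; blue points are the 5 untreated and orange points the 5 treated libraries, and black bars are mean ± SD. Treated points lie wholly below untreated ones for Tuba1a, Tubb2b, Tubb3, Tubb5, Tubb2a and Tubb6, wholly above for Tubb4a, and overlap for Tuba1b, Tuba4a and Tubb4b.

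Tuba1a is the main α-tubulin of postmitotic neurons, and its mutation in people disturbs neuronal migration. The gene (ENSMUSG00000072235) lies on chromosome 15 of GRCm38, 98949837 to 98953703, on the minus strand. Tuba1a stood at 4043, 4204, 4438, 4154 and 4103 CPM in untreated libraries 1 to 5 and at 3424, 3378, 3246, 3319 and 3215 CPM in treated libraries 6 to 10. The groups were tight and well apart, with the lowest untreated library above the highest treated one. Tuba1a fell from 4189 ± 152 to 3316 ± 87.6 CPM (SD, n = 5 per group), 1.26-fold lower, with a log2 fold change of -0.34 (SE 0.05, adjusted p = 0.00138, edgeR).

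Tubb2b encodes a β-tubulin of migrating and newborn neurons, and it showed the largest fall among the early isotypes. The gene (ENSMUSG00000045136) lies on chromosome 13, 34126748 to 34130466, on the minus strand. Tubb2b was 681, 712, 823, 721 and 585 CPM in untreated libraries 1 to 5. It was 496, 358, 426, 455 and 442 CPM in treated libraries 6 to 10. Untreated library 3 was the highest and treated library 7 the lowest, and the closest pair, untreated library 5 and treated library 6, still did not cross. Tubb2b fell 1.62-fold, from 705 ± 85.5 to 435 ± 50.4 CPM (SD, n = 5 per group), with a log2 fold change of -0.69 (SE 0.09, adjusted p = 8.97e-04, edgeR).

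Tubb3, class III β-tubulin, is the isotype used as a marker of young neurons. It lies on chromosome 8, 123411424 to 123422015, on the plus strand. Tubb3 was 771, 913, 899, 848 and 833 CPM in untreated libraries 1 to 5 and 713, 729, 686, 723 and 689 CPM in treated libraries 6 to 10. The treated libraries were close together, and untreated library 1 came nearest to them. Tubb3 fell 1.20-fold, from 853 ± 56.7 to 708 ± 19.7 CPM (SD, n = 5 per group; log2 fold change -0.27, SE 0.05, adjusted p = 0.00777, edgeR).

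Tubb5, class I β-tubulin, is the isotype of dividing progenitors and most other cells. It lies on chromosome 17, 35833921 to 35838306, on the minus strand. Tubb5 was 1131, 1268, 1262, 1134 and 1114 CPM in untreated libraries 1 to 5. It was 919, 912, 948, 983 and 907 CPM in treated libraries 6 to 10, all below the untreated range. Tubb5 fell 1.27-fold (log2 fold change -0.34, SE 0.05, adjusted p = 0.00242, edgeR). Tuba1b, the α-tubulin known from dividing cells, was the early isotype that did not pass. It averaged 822 ± 54.0 CPM in untreated against 778 ± 55.6 CPM in treated brains (SD, n = 5 per group; log2 fold change -0.08, SE 0.06, adjusted p = 0.438, edgeR). Its libraries overlapped, from 755 to 889 CPM untreated and from 716 to 854 CPM treated.

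Tubb4a encodes the class IVa β-tubulin of mature neurons and myelinating oligodendrocytes, and its mutation in people causes a disease with loss of myelin. It lies on chromosome 17, 57080066 to 57087782, on the minus strand. Tubb4a was 947, 1031, 828, 787 and 1160.5 CPM in untreated libraries 1 to 5 and 1411, 1402, 1243, 1260.3 and 1268 CPM in treated libraries 6 to 10. The untreated libraries were spread more widely than the treated ones, libraries 3 and 4 being lowest and library 5 nearest to the treated range. Tubb4a rose 1.39-fold, from 951 ± 152 to 1317 ± 82.3 CPM (SD, n = 5 per group; log2 fold change 0.47, SE 0.09, adjusted p = 0.00777, edgeR).

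Tuba4a, the α-tubulin without a terminal tyrosine codon, lies on chromosome 1, 75214228 to 75219865, on the minus strand. It was 492, 549, 429, 477 and 555 CPM in untreated libraries 1 to 5 and 542, 632, 589, 539 and 582 CPM in treated libraries 6 to 10. Untreated libraries 2 and 5 lay above treated libraries 6 and 9, so the groups overlapped. The means were 500.4 ± 52.4 and 577 ± 38.3 CPM (SD, n = 5 per group), and the log2 fold change of 0.21 (SE 0.07) missed the threshold at an adjusted p = 0.0839 in edgeR's test. It passed without untreated library 5 (0.25, adjusted p = 0.0422, edgeR) and with DESeq2 (0.21, adjusted p = 0.0427).

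Of the other isotypes Tubb2a fell slightly. It was 1329, 1440.2, 1359, 1317 and 1239 CPM in untreated libraries 1 to 5 and 1175, 1128, 1221, 1186 and 1205 CPM in treated libraries 6 to 10. The gap between the groups was narrow, untreated library 5 lying just above treated library 8. Tubb2a was 1.13-fold lower (log2 fold change -0.18, SE 0.05, adjusted p = 0.0410, edgeR). This call was lost in 9 of 10 fits that left out 1 library (adjusted p up to 0.0815), all but the one without untreated library 5, and in 13 of 20 alternative analyses in all.

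Tubb6, the minor class V isotype, had the largest fall of the 10 on the log2 scale, at a low level. Its counts per library were between 78 and 291. Tubb6 was 11.4, 7.76, 8.32, 8.87 and 6.54 CPM in untreated libraries 1 to 5 and 4.80, 5.86, 4.87, 3.60 and 5.22 CPM in treated libraries 6 to 10. Untreated library 1 was the highest, and no treated library reached the untreated range. Tubb6 was 1.77-fold lower (log2 fold change -0.82, SE 0.16, adjusted p = 0.00680, edgeR). Tubb4b averaged 271 ± 15.8 CPM in untreated against 277 ± 15.2 CPM in treated brains (SD, n = 5 per group; log2 fold change 0.04, SE 0.05, adjusted p = 0.726, edgeR). Its sign turned to -0.02 when only library totals were used for scaling.

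**Figure D2:**
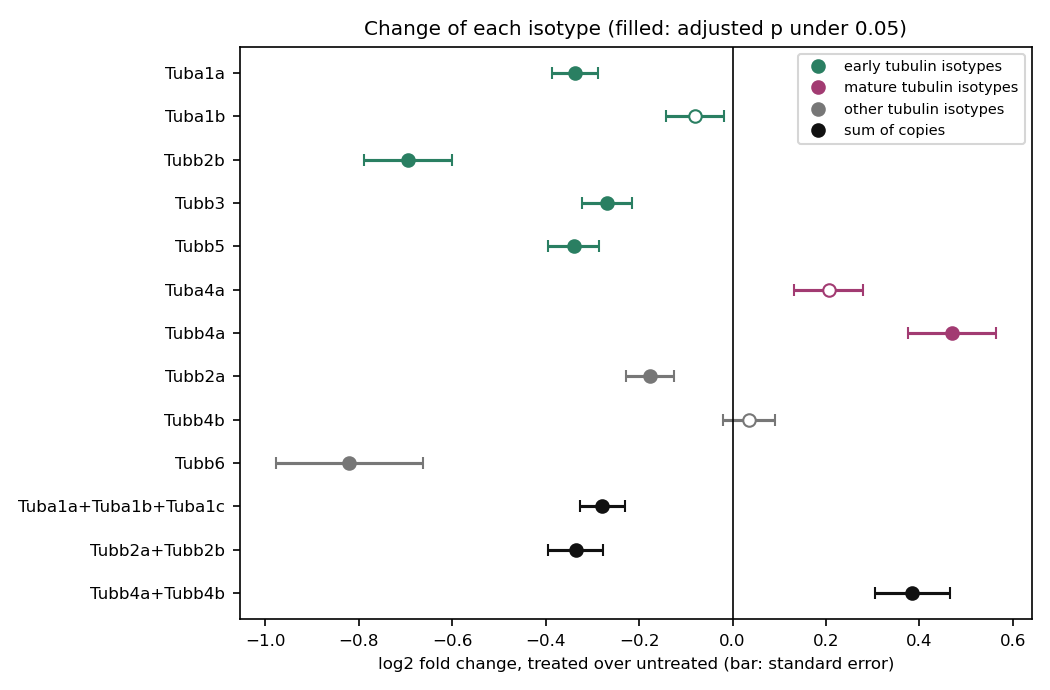
Log2 fold change of treated over untreated (horizontal axis) with its standard error for the 10 isotypes and for 3 sums of isotypes; colours give the groups and filled points have an adjusted p under 0.05. The early isotypes lie left of 0, from -0.69 for Tubb2b to -0.08 for Tuba1b, and both mature isotypes right of it, at 0.21 and 0.47.

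Summing close copies removes the effect of how reads were divided between the genes summed, though not between them and other loci. Tuba1a, Tuba1b and Tuba1c together went from 5213 ± 175 to 4299 ± 109 CPM (SD, n = 5 per group), 1.21-fold lower (adjusted p = 0.00399, edgeR). Tubb2a and Tubb2b together went from 2042 ± 142 to 1618 ± 75.3 CPM (SD, n = 5 per group), 1.26-fold lower (adjusted p = 0.00434, edgeR). Tubb4a shares no stretch of 75 bases with another gene, so its sum with Tubb4b (1.31-fold higher, adjusted p = 0.00929, edgeR) follows Tubb4a and does not bear on the uncertain reads of Tubb4b. Of other loci that share stretches, Gm17383 (38.5% of the stretches of Tuba1a) ranged from 13.1 to 32.1 CPM and Gm14150 (39.8% of those of Tuba1b) from 14.1 to 32.1 CPM over the 10 libraries, and Tubb2a-ps2 and Tubb4b-ps1 averaged 1.08 and 2.28 CPM untreated.

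The calls of all 7 isotypes were lost without 3 of the untreated libraries. Untreated libraries 1 to 3 carry another prefix in their names (5015) than the remaining 7 libraries (50515), and what the prefix stands for is not given. Without these 3 libraries, which leaves 2 untreated and 5 treated, none of the 10 isotypes passed in edgeR's test, while 5 were lower and 1 higher at an unadjusted p under 0.05. The adjusted p was 0.0628 for Tuba1a, 0.0568 for Tubb2b, 0.110 for Tubb3, 0.0997 for Tubb5 and 0.146 for Tubb4a (edgeR). Over all genes, 105 of 16469 tested passed in this fit, against 1926 of 17101 when no library was left out. How many of all genes had an unadjusted p under 0.05 was not counted. DESeq2 was not run on these 7 libraries. All 10 kept their sign, with log2 fold changes of -0.32 for Tuba1a, -0.59 for Tubb2b, -0.25 for Tubb3, -0.27 for Tubb5, -0.67 for Tubb6 and 0.43 for Tubb4a. With the prefix as a covariate Tuba1a (adjusted p = 0.0400) and Tubb2b (adjusted p = 0.0373) passed in edgeR's test, and the other 5 did not. Over all genes 180 of 17101 passed with this covariate.

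Levels can be compared between isotypes only per length, here as CPM per kilobase of exon. The length counts all annotated exon bases of a gene, for Tubb5 3327 against 2649 in its longest transcript. The order of close neighbours and ratios between genes depend on this choice. Tuba1a was by far the most abundant, at 2323 ± 84.3 untreated and 1839 ± 48.6 treated (CPM per kb, SD, n = 5 per group), and ranked 17 and 21 among all 17101 genes tested. Tubb2a followed at 830.4 and 735 CPM per kb. In untreated brains Tubb3, Tuba1b, Tubb4a, Tubb5 and Tubb2b came next, at 457, 439, 427, 355 and 307 CPM per kb, and neighbours in this order overlapped between libraries. In treated brains Tubb4a moved from the fifth to the third place, at 591 CPM per kb, clear of Tuba1b at 415 and Tubb3 at 379 CPM per kb. Tubb2b dropped from rank 82 to rank 161 among all genes, at 189.8 CPM per kb, and Tubb4a climbed from rank 52 to rank 36. Tuba4a (135 and 156 CPM per kb), Tubb4b (129.6 and 133 CPM per kb) and Tubb6 (3.52 and 2.00 CPM per kb) were lowest in both groups. All 10 isotypes together made up between 10422 and 11221 CPM untreated, and between 9342 and 9712 CPM treated.

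Each isotype was also expressed as a share, per kilobase, of the summed α- or β-tubulin genes examined here. These shares do not depend on the scaling of the libraries and are given as descriptions without a test. Tubb4a made up 17.0% ± 2.72 of β-tubulin in untreated and 25.6% ± 1.47 in treated brains (SD, n = 5 per group). By library its share was 17.5%, 17.2%, 14.5%, 14.7% and 21.2% untreated and 26.8%, 27.5%, 24.3%, 24.4% and 24.8% treated. The share of Tubb2b went from 12.2% ± 1.38 to 8.21% ± 0.869 and that of Tubb5 from 14.2% ± 0.424 to 12.2% ± 0.436 (SD, n = 5 per group), without overlap between the groups. Tubb3 held 18.2% and 16.4% on average, and its groups met, untreated library 1 and treated library 7 both being at 17.0%. Tubb2a stayed the leading β-tubulin, at 33.1% ± 1.10 and 31.8% ± 1.07 (SD, n = 5 per group), with overlap.

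Among α-tubulins Tuba1a held 80.2% ± 0.520 untreated and 76.3% ± 1.11 treated (SD, n = 5 per group). Tuba4a held 4.68% ± 0.579 and 6.47% ± 0.467, its treated libraries all above the untreated ones (5.96% to 7.04% against 3.80% to 5.25%), although its CPM values overlapped. Tuba1b took 15.1% and 17.2%, with overlap, although its log2 fold change in CPM was -0.08. The α sum went from 2897 ± 100 to 2410 ± 46.0 CPM per kb (SD, n = 5 per group). A share of it can therefore rise without a rise in CPM. The ratio of the early to the mature sum per kilobase was 6.62, 6.44, 8.52, 8.04 and 5.58 in untreated libraries 1 to 5 and 4.09, 3.84, 4.31, 4.43 and 4.14 in treated libraries 6 to 10. Untreated libraries 3 and 4 had the highest ratios and library 5 the lowest of its group. In untreated brains Tuba1a made up 2323 of the 3881 CPM per kb of the early sum. Tubb4a made up 427 of the 562 CPM per kb of the mature sum. The ratio thus mostly sets an α gene against a β gene. Tubb4a was 1.42 ± 0.396 times as abundant as Tubb2b per kilobase in untreated and 3.16 ± 0.495 times in treated brains (SD, n = 5 per group).

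**Figure D3:**
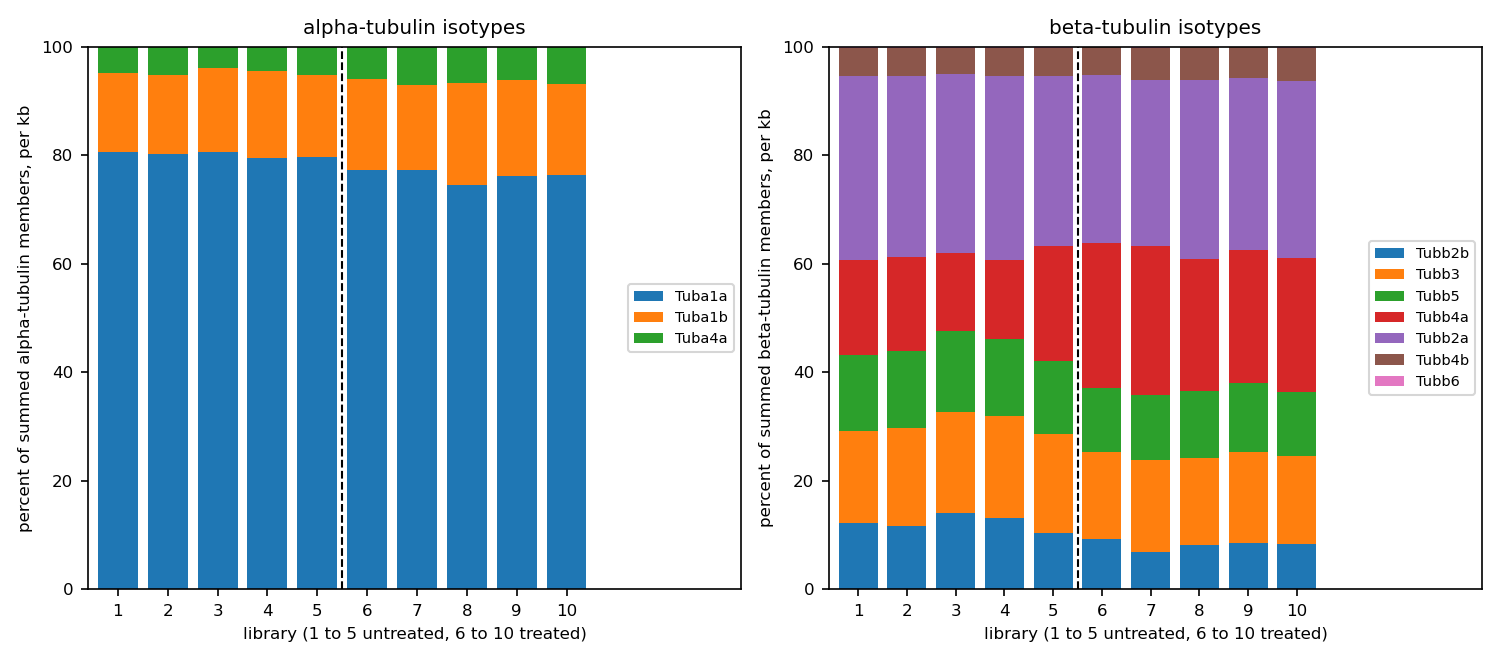
Share of each isotype (percent of the summed members of its class, CPM per kilobase) in each library, α-tubulins on the left and β-tubulins on the right; the dashed line parts untreated libraries 1 to 5 from treated libraries 6 to 10. The Tubb4a band widens from 14.5% to 21.2% on the left of the line to 24.3% to 27.5% on its right, while the Tubb2b band narrows.

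In whole-brain RNA fewer cells of a type and less RNA per cell cannot be told apart, so marker lists of cell types were summed beside the isotypes. The counts of markers past the threshold stand against 6.61% higher and 4.65% lower over all genes tested. No such counts are given here with the name prefix as a covariate or without the 3 libraries of another prefix. Markers of neurons were present at similar sums in both groups, 5017 to 5781 CPM untreated and 5218 to 5734 CPM treated. In edgeR's test 1 of 8 was higher (Eno2) and 2 were lower (Gap43 and Stmn2), with a median log2 fold change of 0.18. At an unadjusted p under 0.05, 5 were higher and 2 lower, and DESeq2 called 3 higher and 2 lower. No marker of any list was at 0 in all libraries. Markers of immature neurons summed to 582 to 674 CPM untreated and 452 to 525 CPM treated, with 5 of 7 lower. At an unadjusted p under 0.05 in edgeR's test 1 was higher and 5 lower, and DESeq2 called 1 higher and 5 lower. Markers of cycling cells summed to 35.0 to 77.5 CPM untreated and 23.7 to 31.3 CPM treated, with 5 of 7 lower. Untreated library 1, 1 of the 3 with another name prefix, was highest for these and for Tubb6. It was also highest for the astrocyte and microglia sums (1815 and 232 CPM). The next highest untreated cycling sum was 48.3 CPM, in library 4. Mki67, a cycling marker, lost its call in 3 of 21 alternative analyses. Mbp and Dcx, from the oligodendrocyte and immature neuron lists, kept theirs in all 21. Markers of oligodendrocytes summed to 2027 to 3905 CPM untreated and 6005 to 8113 CPM treated, with 10 of 10 higher. The untreated libraries with the least Tubb4a, 3 and 4, also had the lowest oligodendrocyte sums (2027 and 2086 CPM). Library 5 had the most Tubb4a and the highest oligodendrocyte sum in its group. Libraries 3 and 4 had the lowest neuron sums too (5017 and 5152 CPM), while untreated library 2 had the highest (5781 CPM). Ciliated ependymal markers overlapped between the groups, at 13.3 to 36.1 CPM untreated and 17.7 to 32.8 CPM treated, and none of 7 passed in edgeR's test, at an adjusted or an unadjusted p under 0.05, or in DESeq2. Astrocyte markers summed to 1063 to 1815 CPM untreated and 1314 to 1512 CPM treated (3 of 6 higher), microglia markers to 192 to 232 and 191 to 208 CPM (1 of 6 higher) and endothelial markers to 107.5 to 122.8 and 119.5 to 145.2 CPM (2 of 5 higher). At an unadjusted p under 0.05 in edgeR's test, 4 astrocyte markers were higher and 2 lower. For microglia 2 were higher and 2 lower, and the median log2 fold change was -0.17. Red blood cell markers summed to 598 to 1468 and 975 to 1571 CPM (1 of 6 higher) and choroid plexus markers to 104 to 846 and 342 to 917 CPM (1 of 5 higher). Midbrain dopamine neuron markers ran from 8.83 to 23.4 CPM untreated and from 12.9 to 94.1 CPM treated, highest in treated libraries 6, 7 and 9 (3 of 4 tested were higher). The part of these cell types and regions in the isotype changes was not tested.

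**Figure D4:**
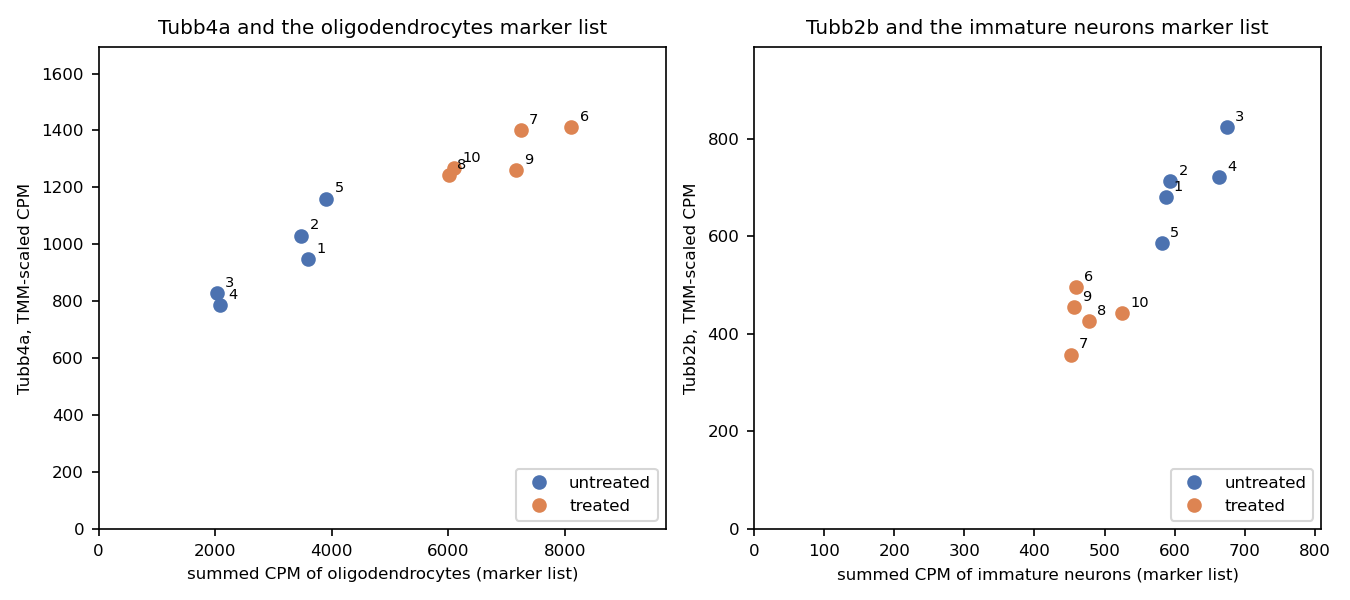
Left, Tubb4a (TMM-scaled CPM) against the summed CPM of 10 oligodendrocyte markers; right, Tubb2b against the summed CPM of 7 immature neuron markers; each point is a library with its mouse number, blue untreated and orange treated, and both axes start at 0. Untreated libraries 3 and 4 are lowest for Tubb4a and for the oligodendrocyte sum, and untreated library 3 is highest for Tubb2b and for the immature neuron sum.

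The genes whose levels ran most like those of 1 early and 1 mature isotype were found by Pearson's r of log2(CPM + 1) over the 10 libraries, among 9672 genes with at least 10 CPM on average. The 2 treatment groups are part of every such r, and the values describe these libraries. For Tubb3 they were Triobp (r = 0.970), Arxes1 (0.965), Ybx3 (0.961), Pogk (0.949) and Vash1 (0.947), all 5 lower in treated brains. For Tubb4a they were the sodium channel subunit Scn2b (r = 0.991), the deubiquitinase Otub1 (0.988), the dynein light chain Dynll2 (0.987), the neuronal enolase Eno2 (0.987) and Tmem254b (0.986), all 5 higher.

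Genes that fold, modify, bind and move along microtubules were examined in 8 lists. The limit set by the name prefix holds for them too. Of the 21 genes named from these lists with a call, 19 lost it with the prefix as a covariate, all but Dcx and Stmn2, and 20 lost it without the 3 libraries, all but Dcx, while all 21 kept their sign (edgeR; adjusted p of the lost calls 0.0554 to 0.272 and 0.0609 to 0.345). Microtubule-associated proteins changed in 9 of 19 cases, 5 higher and 4 lower, against 11.3% of all genes, with a median log2 fold change of -0.05. Dcx, doublecortin, which bundles microtubules in migrating neurons, was 133, 127, 173, 167 and 114 CPM in untreated libraries 1 to 5 and 72.5, 76.2, 82.1, 79.0 and 82.3 CPM in treated libraries 6 to 10. It fell 1.82-fold (adjusted p = 4.34e-04, edgeR), and it passed in every one of 21 alternative analyses. Tau (Mapt), which stabilises axonal microtubules, fell 1.18-fold (adjusted p = 0.0175, edgeR). Map7, which recruits kinesin to microtubules, rose 1.39-fold (adjusted p = 0.00220, edgeR), and Tppp, a tubulin polymerisation protein of oligodendrocytes, rose 1.29-fold (adjusted p = 0.00377, edgeR).

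Among stathmins, which bind free tubulin, and severing enzymes 3 of 10 fell and none rose in edgeR's test (2 were higher at an unadjusted p under 0.05) or in DESeq2. Over all genes tested 4.65% were lower and 6.61% higher. Stmn2, a stathmin of growth cones, was 1.27-fold lower (1005 ± 42.9 to 789 ± 28.1 CPM, SD, n = 5 per group; adjusted p = 0.00108, edgeR), and Stmn1, found in progenitors and young neurons, was also 1.27-fold lower (adjusted p = 0.00778, edgeR). Spast, which cuts microtubules, was 1.15-fold lower (adjusted p = 0.0365, edgeR) but lost its call in 8 of 10 fits without 1 library. Stmn4 stood at 216 ± 11.0 and 198 ± 7.90 CPM (SD, n = 5 per group; adjusted p = 0.112, edgeR).

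Enzymes that modify tubulin passed in 4 of 21 tested cases, 3 higher and 1 lower, against 6.61% higher and 4.65% lower over all genes. Sirt2, a tubulin deacetylase that is abundant in oligodendrocytes, rose 1.61-fold from 206 ± 37.7 to 330.5 ± 59.7 CPM (SD, n = 5 per group; adjusted p = 0.00678, edgeR). Ttll1 and Ttll11, which add glutamates to tubulin tails such as those printed above, rose 1.15-fold and 1.20-fold (adjusted p = 0.0223 and 0.00991, edgeR), the former losing its call in 5 of 10 fits without 1 library. Vash1, a vasohibin that removes the terminal tyrosine of α-tubulin, fell 1.21-fold from 80.6 ± 6.35 to 66.7 ± 4.08 CPM (SD, n = 5 per group; adjusted p = 0.0146, edgeR).

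Of 22 genes for folding tubulin 2 rose and 2 fell, against 6.61% and 4.65% of all genes, with a median log2 fold change of -0.10. Cct4 and Cct6a, subunits of the chaperonin that folds new tubulin, were 1.17-fold and 1.20-fold lower (adjusted p = 0.00777 and 0.0122, edgeR). Arl2 and Tbcel, a regulator of tubulin assembly and a relative of the tubulin cofactors, were 1.26-fold and 1.19-fold higher (adjusted p = 0.0154 and 0.0296, edgeR), Tbcel losing its call in 7 of 10 fits without 1 library.

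Of 13 kinesin genes of axonal transport 3 fell and 1 rose, against 4.65% lower and 6.61% higher over all genes. Kif21b, a neuronal kinesin, fell 1.43-fold from 667 ± 73.8 to 465 ± 45.7 CPM (SD, n = 5 per group; adjusted p = 0.00237, edgeR). Kif2a, which takes microtubule ends apart, and Kif3a, a motor subunit, were 1.18-fold and 1.15-fold lower (adjusted p = 0.0134 and 0.0217, edgeR). The kinesin light chain Klc2 was 1.23-fold higher (adjusted p = 0.0272, edgeR), a call lost in 4 of 10 fits without 1 library.

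In the remaining lists 2 genes passed, 1 of 11 plus-end proteins and 1 of 6 further tubulin genes, against 11.3% of all genes. Of 11 plus-end proteins Mapre3, a neuronal end-binding protein, was 1.20-fold higher (adjusted p = 0.0266, edgeR), and its call was lost in 4 of 10 fits without 1 library. Mapre1, Mapre2 and Ckap5 did not pass, with log2 fold changes from -0.13 to -0.10. None of the 10 genes of the γ-tubulin ring complex, which starts new microtubules, passed in edgeR's test, where 1 had an unadjusted p under 0.05, and 1 passed in DESeq2. Tubg1 and Tubg2, close paralogs whose reads could be split, stood at log2 fold changes of 0.18 (SE 0.11) and 0.21 (SE 0.07), Tubgcp3 at -0.07 (SE 0.05) and Tubgcp6 at 0.14 (SE 0.07). Of 10 further tubulin genes 6 had enough counts, and Tuba8 was 1.41-fold higher, from 6.33 ± 1.16 to 8.97 ± 1.18 CPM (SD, n = 5 per group; adjusted p = 0.0335, edgeR), a call lost in 7 of 10 fits without 1 library. Tubd1 had a log2 fold change of -0.12 (SE 0.16).

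**Figure D5:**
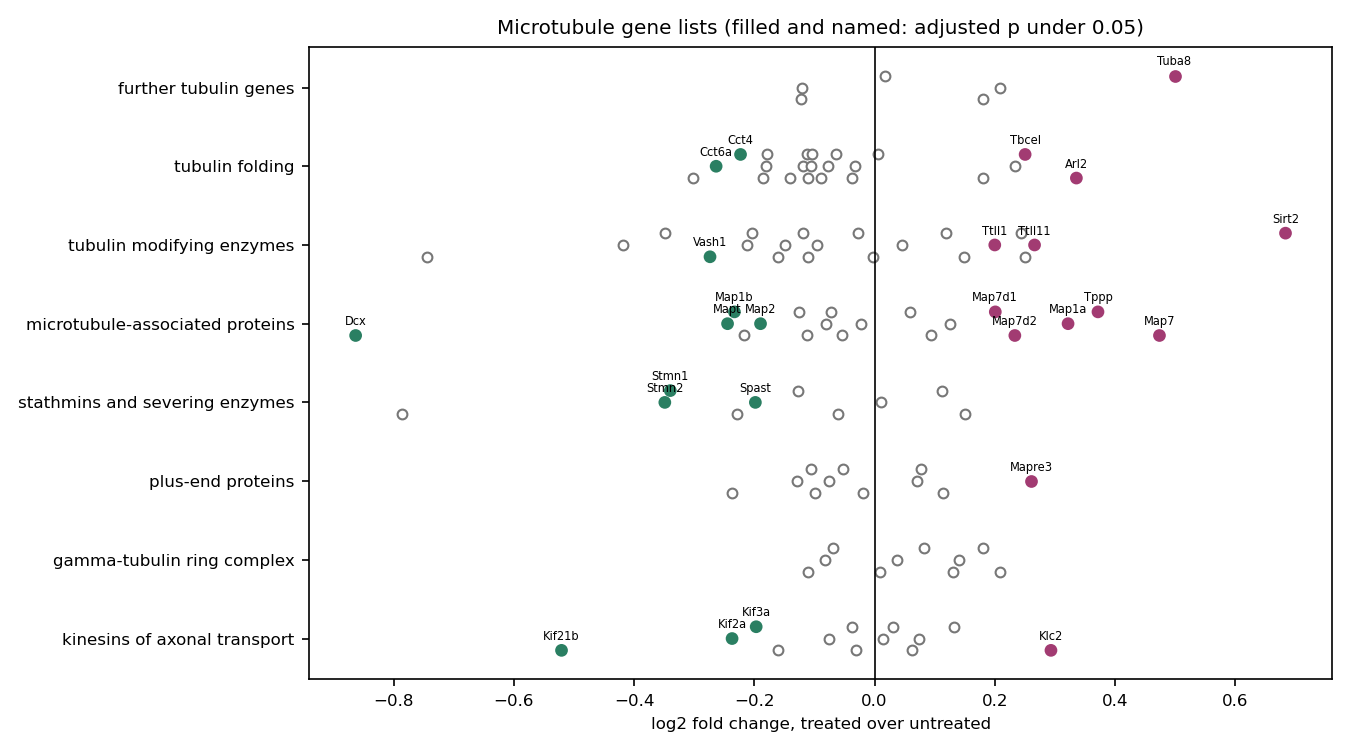
Log2 fold change of treated over untreated (horizontal axis) for every tested gene of 8 microtubule gene lists, 1 row per list, with points shifted vertically for legibility; filled points with names have an adjusted p under 0.05 and open points do not. Dcx at -0.86 and Sirt2 at 0.68 are the outermost named genes, and no point of the γ-tubulin ring complex row is filled.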

How the data were processed

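Whole-brain RNA of 10 mice was extracted with an RNeasy Plus kit and made into libraries with a directional NEBNext kit, per the labels' protocols. The authors deposited 1 gene table. Its name calls the values normalized, but library totals differ and 86.8% to 87.6% of values above 0 are whole, so they were read as counts. Behind the estimated counts that the authors deposited stand Partek software and the mouse build mm10, per the submitters' processing notes. For the aligner, annotation and strand setting, nothing is given in the sources used here.

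Counts were rounded and genes with at least 10 counts in at least 5 libraries tested, 17101 in all. Treated and untreated mice were compared with edgeR 4.0.16 (quasi-likelihood, TMM, two-sided, no covariate, Benjamini-Hochberg over all genes tested, threshold 0.05) in R 4.3.3. The fit was tested on simulated counts with no prefix effect and no shared reads, so that test does not bear on either limit. GENCODE M21 named 55230 of 55471 identifiers and gave lengths and sequences; some sequences are not reported here. The members and lists were chosen with earlier results of these data known. Named genes were the 10 isotypes, up to 4 genes of smallest p per microtubule list and 5 genes most like Tubb3 and Tubb4a. Alternatives were other scalings and count filters, DESeq2 1.42.0, limma 3.58.1, summed copies, a covariate for the prefix of library names, leaving out the 3 libraries with the rarer prefix, and leaving out each library. P-values set the difference between the groups against the spread between single mice, and the untreated group holds libraries of both name prefixes.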

Additional observations from a re-analysis of the deposited data

Results flagged for a closer look

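Tubb4b stood at 298 CPM in untreated library 2, the highest of its group. Its gap to the next untreated library was 0.749 of the range of the group, above the critical value of 0.71 for 5 libraries. Chance sets about 1 group in 20 apart in this way. Such gaps were looked for in the CPM and the class share of all 10 isotypes, in untreated and in treated libraries, and no other was found.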

How the results depend on the processing

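No isotype with a call changed direction in any alternative run for it, 20 for Tuba1a, Tubb2a, Tubb2b and Tubb4a and 21 for Tubb3, Tubb5 and Tubb6, but the calls depended on the 3 libraries named with another prefix. With the prefix as a covariate 180 genes passed (119 higher, 61 lower), with 2 isotypes lower, both early, and 0 higher. Without those libraries 105 genes passed (80 higher, 25 lower), with 0 isotypes lower, 0 early ones lower and 0 mature ones higher (edgeR; 5 lower and 1 higher at an unadjusted p under 0.05). The prefix is shared by untreated libraries only, so it is partly confounded with treatment, and the cause was not tested. Scaling by library totals alone gave 1451 genes lower, and DESeq2 called 2627 genes and 2 isotypes higher, both mature. Leaving out each library in turn gave 1084 to 2343 genes past the threshold, 645 to 1360 higher and 435 to 983 lower. Counts fell by over 1.5 times without untreated library 1 (1235 genes), 3 (1116) or 4 (1084). In these fits 5 to 6 isotypes were lower, with all 4 called early ones among them, and 1 to 2 were higher, the 2 (both mature) without untreated library 5. No paired analysis was possible because mouse numbers 1 to 5 and 6 to 10 are not shared between the groups. Low counts limit Tubb6, and shared sequence limits Tuba1a, Tuba1b, Tubb2a, Tubb2b and Tubb4b.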
